A study of Mus musculus with 6 samples.

Results

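The interleukin-6 family comprises cytokines that signal through the shared receptor chain gp130, the product of Il6st. The genes described here were Il6, Il11 and Lif (cytokines), Osmr, Lifr, Il6st, Il6ra and Il11ra1 (receptor chains), and Stat3 and Socs3 (the transcription factor that the receptors activate and the inhibitor that it induces). They were chosen by symbol, from probe sets with exactly 1 gene symbol in the array annotation. Of the 10 genes, 9 were found among the 22180 genes with such a probe set, and Il11ra1 was not analysed here. Socs3 had 2 such probe sets and the other 8 genes had 1. For Socs3, the probe set with the higher mean of the 6 arrays was used.

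RNA was measured on Affymetrix Mouse Gene 2.0 ST arrays in cells from mouse gliomas, labelled as tumor-associated endothelial cells, in a study of the role that phosphorylated profilin-1, which binds actin, plays in their transcription. The cells were sorted magnetically with an antibody against CD105 (endoglin) and then exposed to glioma-conditioned medium for 12 h. The Tie2-Cre group (genotype Tie2-Cre,Pfn1fl/fl:Y129F) held mice 1, 3 and 4, and the no Cre group (Pfn1fl/fl:Y129F) held mice 6, 7 and 10, with 1 array per mouse. Both groups therefore carried floxed Pfn1 and the Y129F form, and the no Cre mice are not wild type. Tie2-Cre is driven by the regulatory region of Tek (Tie2), which is active in endothelial cells and also in blood-forming lineages. How Cre rearranges the alleles, and the ages and sexes of the mice, are not given in the sources used here.

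As background, the cytokines of the family each bind gp130 together with further chains. Interleukin-6 uses the binding chain Il6ra and a pair of gp130 molecules, interleukin-11 uses its own binding chain in the same way, leukemia inhibitory factor (Lif) joins Lifr to gp130, and oncostatin M joins Osmr to gp130 (in the mouse mainly this pair). The receptors activate Janus kinases, which phosphorylate STAT3. STAT3 then switches on genes that include Socs3, whose product binds gp130 and ends the signal. In gliomas, interleukin-6 from endothelial and other stromal cells is known to act on macrophages and tumor cells.

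Pfn1 had a similar signal in both groups (log2 change 0.04, SE 0.062, limma adjusted p 0.776), and the array cannot separate Y129F from unaltered Pfn1. Xist was low with Tie2-Cre (change -5.59, SE 0.17) and the Y-linked genes were high (3 of 3 measured), so the groups also differed in sex, and an effect of sex cannot be told apart from one of Cre in any comparison below. In the no Cre arrays the Y-linked genes read 4.52 to 5.62 log2, which shows the signal that a probe set can give without its transcript. Among the endothelial markers, Eng, the sorting antigen, read 11.76 ± 0.034 and 12.05 ± 0.036 (SD, n = 3 mice each), Pecam1 lay at 6.08 to 6.43, Emcn at 4.09 to 4.48 and Flt1, a VEGF receptor, at 7.47 to 9.35 log2 over the 6 arrays. Tek, whose regulatory region drives the Cre, lay at 5.45 to 6.03, which reaches into the range of the Y-linked genes in the no Cre arrays. These values also lie within the range of Xist in the Tie2-Cre arrays (5.36 to 6.06). Of markers of other cells, Col1a1 (fibroblasts) lay at 11.95 to 12.10, and Acta2 and Des (mural cells) at 13.20 to 13.88 and 7.14 to 7.44. Probe sets differ in brightness, so these readings give no cell shares and do not order the markers.

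Between the groups, 1 of the 9 genes was higher with Tie2-Cre (Lifr), 1 was lower (Lif) and 7 did not pass the threshold, a Benjamini-Hochberg adjusted p under 0.05 in limma over all genes. Among all 22180 genes, 12.0% passed, with 4.78% higher and 7.17% lower. Of the genes with a mean log2 of at least 7, 19.1% passed. A change is the mean log2 intensity with Tie2-Cre minus that without Cre. In 3 of the 9 genes (Lifr, Lif and Il6ra) the values of one group lay wholly beyond those of the other, against 31.0% of all genes: 1 lay higher with Tie2-Cre (13.6% of all genes) and 2 lay lower (17.5%). Lifr, the receptor chain that Lif uses, and Lif itself lay on opposite sides, but the call of Lif was lost under 9 of 13 alternatives. Il6, Il11, Osmr, Il6st, Stat3 and Socs3 overlapped between the groups. In a bulk sample, a change in the number of cells that express a gene and one in the RNA per cell cannot be told apart.

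**Figure D1:**
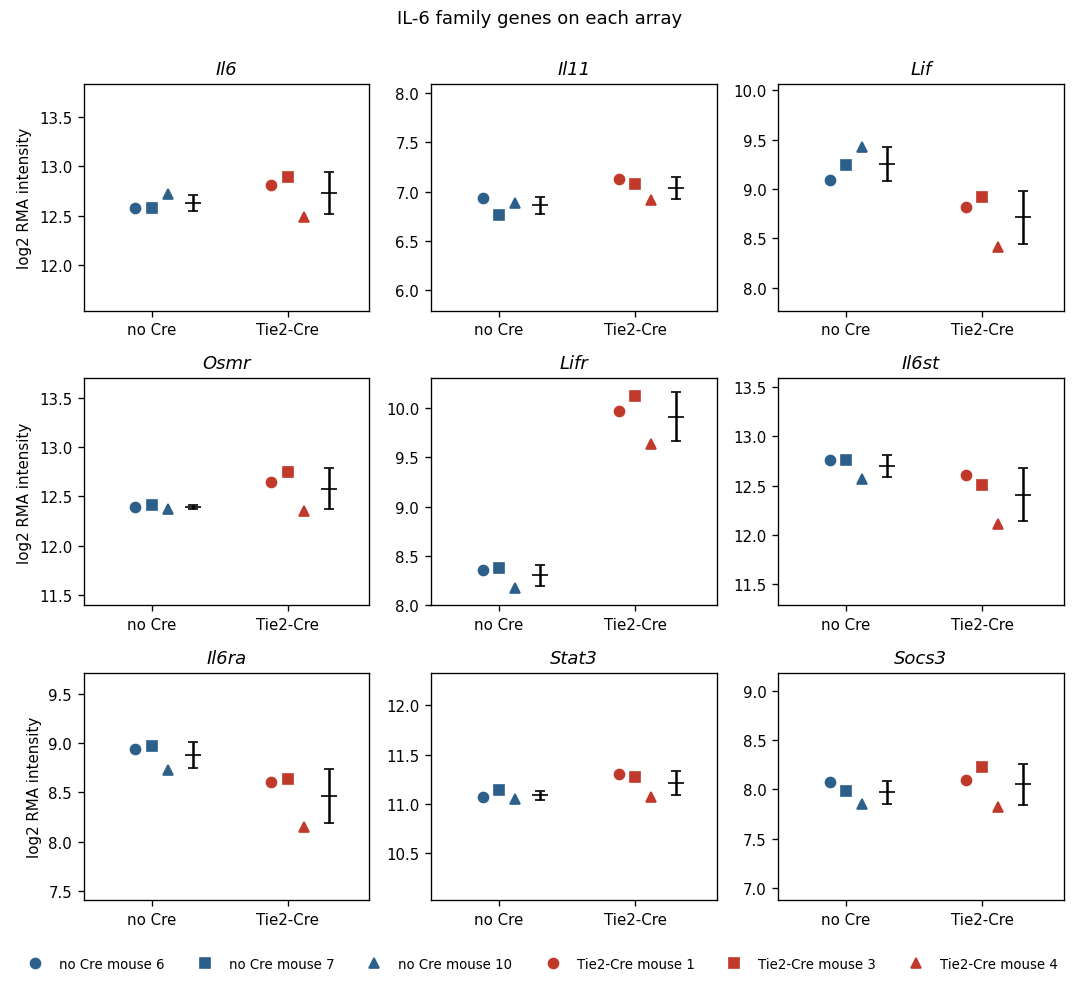
log2 RMA intensity (vertical axis, with the same span in every panel) of the 9 genes on each array, with no Cre mice in blue and Tie2-Cre mice in red, and the mean with its SD (n = 3 mice) in black. Lifr is the gene whose groups lie far apart (9.64 to 10.12 against 8.18 to 8.37), and mouse 4 (red triangle) is the lowest Tie2-Cre array in every panel.

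Lifr, the receptor chain for leukemia inhibitory factor, showed the largest change of the 9 genes. Its log2 intensity was 9.97, 10.12 and 9.64 in Tie2-Cre mice 1, 3 and 4, and 8.35, 8.37 and 8.18 in no Cre mice 6, 7 and 10. Every Tie2-Cre array lay more than 1 log2 above every no Cre array. The change was 1.61 (SE 0.13, 95% confidence interval 1.32 to 1.90, limma adjusted p 0.000221), or 3.05-fold, and its size exceeded that of 99.6% of all genes. The exact permutation test over arrays gave p = 0.1 (two-sided), the smallest that 3 mice against 3 allow. The rise was 1.50 to 1.74 when any 1 mouse was left out, and it passed the threshold each time.

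RefSeq (GRCm38.p6) lists 2 starts for Lifr, and the probe set does not tell transcripts of one from those of the other. The 250 bases before each start are shown because Lifr carries the clearest change, beside those of Lif, which changed the other way, of Il6, and of Socs3, the feedback gene. Capitals mark matches, on either strand, to TTCNNNGAA (STAT), GGANTTTCC (NF-kB), TTGCNNAA (C/EBP) or TGANTCA (AP-1). None of the matches overlapped another.
Lifr, first start (chr15:7129322-7129571, plus strand): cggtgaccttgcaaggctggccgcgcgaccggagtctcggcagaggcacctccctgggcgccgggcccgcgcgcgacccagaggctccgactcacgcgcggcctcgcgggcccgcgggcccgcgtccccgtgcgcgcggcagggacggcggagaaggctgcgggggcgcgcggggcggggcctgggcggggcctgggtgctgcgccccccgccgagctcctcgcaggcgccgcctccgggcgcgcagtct
Lifr, second start (chr15:7140292-7140541, plus strand): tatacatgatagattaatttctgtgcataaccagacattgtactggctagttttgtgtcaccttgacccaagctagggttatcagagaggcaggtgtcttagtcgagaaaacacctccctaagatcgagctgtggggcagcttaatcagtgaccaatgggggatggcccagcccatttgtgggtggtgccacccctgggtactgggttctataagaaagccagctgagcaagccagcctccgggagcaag
Lif (chr11:4257318-4257567, plus strand): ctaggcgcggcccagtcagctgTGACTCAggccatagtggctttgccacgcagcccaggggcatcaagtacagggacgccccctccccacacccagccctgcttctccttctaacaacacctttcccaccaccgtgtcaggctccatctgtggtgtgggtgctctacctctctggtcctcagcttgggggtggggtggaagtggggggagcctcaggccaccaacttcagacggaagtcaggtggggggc
Il6 (chr5:30012864-30013113, plus strand): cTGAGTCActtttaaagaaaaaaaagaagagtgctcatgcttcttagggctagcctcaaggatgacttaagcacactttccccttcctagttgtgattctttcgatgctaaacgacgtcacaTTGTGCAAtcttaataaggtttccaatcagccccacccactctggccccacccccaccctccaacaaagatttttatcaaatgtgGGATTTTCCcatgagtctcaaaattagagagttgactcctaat
Socs3 (chr11:117969367-117969616, minus strand): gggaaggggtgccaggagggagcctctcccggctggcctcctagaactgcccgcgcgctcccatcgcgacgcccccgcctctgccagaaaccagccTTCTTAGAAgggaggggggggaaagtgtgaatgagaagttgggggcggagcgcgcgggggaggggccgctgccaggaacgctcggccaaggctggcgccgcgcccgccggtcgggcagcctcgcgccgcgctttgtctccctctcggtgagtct
The Lifr windows held none of these letters and differed in base composition, with 82.4% G and C before the first start and 50.8% before the second. The Lif window held 1 AP-1 match (TGACTCA). The Il6 window held an AP-1 match (TGAGTCA), a C/EBP match (TTGTGCAA) and an NF-kB match (GGATTTTCC), whose first letters lay 249, 128 and 43 bases before the start. The Socs3 window held 1 STAT match (TTCTTAGAA), 154 bases before the start. Over all 32851 promoter windows of this length in the table, 7.02% held the STAT letters, 1.07% the NF-kB letters, 9.56% the C/EBP letters and 6.75% the AP-1 letters. Windows were found for all 9 genes (11 windows), and the STAT letters occurred in 1 of them, the AP-1 letters in 3. A match describes the sequence and not the binding of a factor.

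Of the other receptor chains, Osmr, the chain for oncostatin M, read 12.65, 12.74 and 12.35 in Tie2-Cre mice 1, 3 and 4 and 12.40, 12.42 and 12.37 in no Cre mice 6, 7 and 10. The groups overlapped because mouse 4 lay under all no Cre mice. The change was 0.18 (SE 0.10, adjusted p 0.331), with an interval of -0.06 to 0.43 that lies wholly under that of Lifr. Without mouse 4 it was 0.30 (SE 0.073) and just passed (adjusted p 0.0493).

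Il6st, which encodes gp130, read 12.61, 12.51 and 12.11 with Tie2-Cre and 12.76, 12.76 and 12.57 without Cre. The highest Tie2-Cre array lay above the lowest no Cre array, and the change of -0.29 (SE 0.13, interval -0.59 to 0.02) did not pass (adjusted p 0.231). Il6ra, the binding chain for interleukin-6, read 8.60, 8.64 and 8.15 with Tie2-Cre against 8.94, 8.97 and 8.73 without Cre. All Tie2-Cre arrays lay under all no Cre arrays, yet the change of -0.42 (SE 0.14) did not pass (adjusted p 0.0969). It passed with another estimate of the variance (eBayes with trend and robust, adjusted p 0.0488), and without mouse 4 it was -0.26, so that this array decided much of its size.

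Among the cytokines, Lif read 8.82, 8.92 and 8.41 in the Tie2-Cre mice and 9.09, 9.25 and 9.43 in the no Cre mice. The groups did not overlap. The change was -0.54 (SE 0.14, interval -0.87 to -0.21), that is 1.46-fold lower, and its adjusted p of 0.0478 lay close to the threshold. The direction was the same in every fit (-0.64 to -0.39 when 1 mouse was left out), but the call was lost without mouse 1, 4, 6, 7 or 10 (adjusted p 0.0843, 0.0806, 0.0570, 0.120 and 0.150) and kept without mouse 3 (0.0463). It was also lost when the arrays were centred on their medians (adjusted p 0.0507), quantile-normalized again (0.0599) or weighted (0.0544), and when all probe sets entered the fit (0.117). Osm, the gene of oncostatin M and the neighbour of Lif in the RefSeq table, had a change of -0.06 (SE 0.098) and overlapped between the groups.

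Il6 read 12.81, 12.89 and 12.49 with Tie2-Cre and 12.58, 12.58 and 12.72 without Cre. Mice 1 and 3 lay above and mouse 4 below all no Cre mice. Its change was 0.10 (SE 0.11, adjusted p 0.641), and the interval of -0.15 to 0.36 leaves out changes as large as that of Lifr in either direction. Il11 read 7.13, 7.08 and 6.91 with Tie2-Cre and 6.93, 6.76 and 6.88 without Cre, overlapping by a small margin, with a change of 0.18 (SE 0.084, adjusted p 0.240). The Il11 signal was low, so that background may understate a change in it.

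Of the signal genes, Stat3 read 11.30, 11.27 and 11.07 with Tie2-Cre and 11.08, 11.14 and 11.05 without Cre. Mouse 4 lay among the no Cre mice, and the change of 0.13 (SE 0.081) did not pass (adjusted p 0.400). Socs3 read 8.10, 8.23 and 7.82 with Tie2-Cre and 8.08, 7.98 and 7.85 without Cre. The groups overlapped over most of their range, and the change was 0.08 (SE 0.11, interval -0.18 to 0.34, adjusted p 0.730). The second Socs3 probe set, the one with the lower mean, lay at 6.10 to 6.15 with Tie2-Cre and 6.19 to 6.22 without Cre, and its change had the opposite sign (-0.08, SE 0.062, adjusted p 0.530). Neither probe set gave a direction that passed the test. The array measures transcript levels, so the phosphorylation of STAT3 was not tested.

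**Figure D2:**
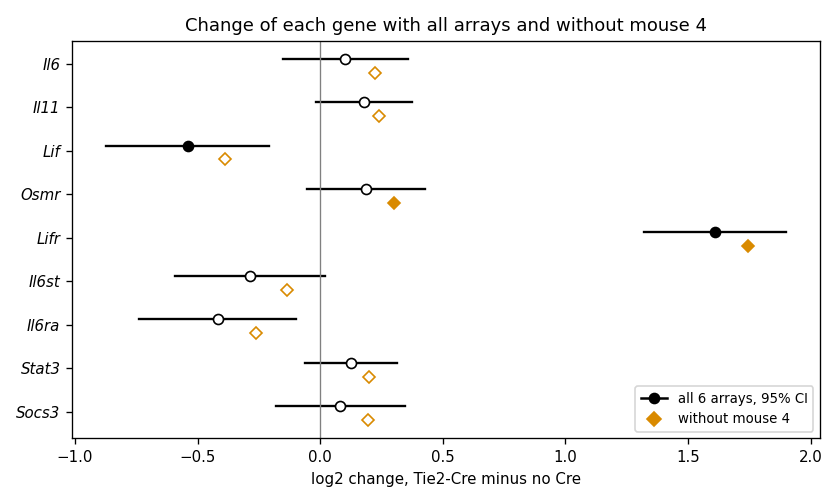
log2 change of each gene, Tie2-Cre minus no Cre (horizontal axis), in the fit of all 6 arrays (black circles with 95% confidence intervals) and in the fit without mouse 4 (orange diamonds), filled where the adjusted p lay under 0.05. Lifr is filled in both (1.61 and 1.74), Lif only with all arrays (-0.54 and -0.39) and Osmr only without mouse 4 (0.18 and 0.30).

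Within the Tie2-Cre group, mouse 4 had the lowest value in all 9 genes, whereas it was the lowest of the 3 arrays in 32.0% of all genes. It lay at least 0.3 log2 under the mean of mice 1 and 3 in 7 of the 9 genes (all except Il11 and Stat3), against 4.46% of all genes. The difference was -0.47 for Il6ra, -0.46 for Lif, -0.45 for Il6st, -0.41 for Lifr, -0.36 for Il6, -0.35 for Osmr and -0.34 for Socs3, with a median of -0.36 over the 9 genes and of 0.0077 over all genes. This array was singled out after its values were seen, and the pattern is given as a description. Cytokines, receptor chains and signal genes were all low in it. Without it the changes were 0.22 for Il6, -0.14 for Il6st, 0.20 for Stat3 and 0.19 for Socs3, none of which passed. Over marker lists, the median difference of mouse 4 from mice 1 and 3 was 0.019 for pericyte and smooth muscle, 0.0085 for fibroblast, 0.094 for endothelial, 0.16 for mesothelial and epithelial, -0.030 for astrocyte and glioma, 0.022 for macrophage and microglia, 0.10 for neutrophil and monocyte and -0.036 for T and NK markers. Mouse 4 was singled out for its low values in the 9 genes, so their median was not tested against these medians. A list median can also hide markers that moved in opposite ways. Of the pathway lists below, STAT3 targets had a median of -0.25 and regulators of Il6 of -0.22. It was -0.034 for transducers and brakes and -0.032 for the other gp130 family genes. Single markers could differ more, for example Myh11 by 1.01, Flt1 by 1.01, Pdgfra by -0.49 and Lum by -0.53. In the Tie2-Cre group, mouse 4 had the highest summed intensity for pericyte and smooth muscle (33522), endothelial (4929), mesothelial and epithelial (1506) and astrocyte and glioma markers (1050). It had the lowest for fibroblast (17936), macrophage and microglia (1341) and neutrophil and monocyte markers (591). For T and NK markers (597) it lay between the other mice. The part of these markers in the low values of mouse 4 was not tested.

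In the no Cre group, mouse 10 was the lowest array in 6 of the 9 genes, against 38.9% of all genes, and these 6 were the 4 receptor chains, Stat3 and Socs3. For the cytokines it was the highest in Il6 and Lif and between the other two in Il11. The spread within this group was smaller: its SD lay at 0.022 to 0.17 over the 9 genes, against 0.11 to 0.27 with Tie2-Cre.

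**Figure D3:**
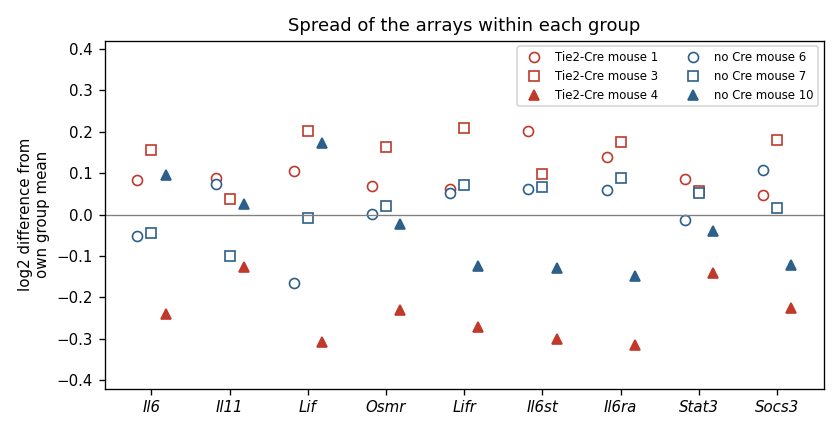
Difference of each array from the mean of its own group (vertical axis, log2) for the 9 genes, with Tie2-Cre mice in red and no Cre mice in blue, and mice 4 and 10 as filled triangles. Mouse 4 is the lowest Tie2-Cre array for all 9 genes, and mouse 10 is the lowest no Cre array for 6 of them.

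The other cytokines and receptors that use gp130 or resemble its users did not pass the test. Of 13 listed, 10 were measured, 0 passed in limma (2 at an unadjusted p under 0.05), and the median change was 0.07, with a range of -0.06 to 0.38. The count was also 0 in each fit that left out 1 mouse. Il27ra, the binding chain for interleukin-27, had a change of 0.29 (SE 0.081, adjusted p 0.0589), which passed with eBayes with trend and robust (0.0347) and with a minimum mean log2 of 5 (0.0445). Ctf2 had a change of 0.38 (SE 0.13, adjusted p 0.101). The remaining members were the cytokine genes Ctf1 (0.02), Clcf1 (0.13), Il27 (0.10), Ebi3 (0.04) and Il12a (0.01), the ciliary neurotrophic factor receptor Cntfr (-0.05) and the interleukin-31 receptor Il31ra (0.14), besides Osm.

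Among 25 measured transducers and brakes of the pathway, 1 was higher, 3 were lower and 21 did not pass, with a median change of -0.08. The share past was 16.0%, against 12.0% of all genes and 19.1% of those with a mean log2 of at least 7. The means of the listed genes lay at 6.80 to 11.77. Socs2, a relative of Socs3 known as a brake on growth hormone signals, read 8.96, 9.26 and 9.85 in Tie2-Cre mice 1, 3 and 4 and 10.88, 10.88 and 10.93 in the no Cre mice. The groups lay about 1 log2 apart at their closest, and mouse 4 was here the highest of its group. The change was -1.54 (SE 0.20, adjusted p 0.00208). With the mean of its probe sets it was -0.95 (SE 0.12, adjusted p 0.00211), so the further signal for this gene changed less. Cish, another member of that family, was higher by 0.59 (SE 0.13, adjusted p 0.0219), a call lost without mouse 1, 3, 6 or 10 (adjusted p 0.0759, 0.0729, 0.0673 and 0.0804). With the mean of its probe sets the change of Cish was 0.49 (adjusted p 0.0303). The kinase Jak1, which is tied to gp130, changed by -0.27 (SE 0.061, adjusted p 0.0274) and the phosphatase Ptpn11 (SHP2), which docks on gp130, by -0.27 (SE 0.063, adjusted p 0.0294). Both calls were lost when any 1 mouse was left out (adjusted p 0.0631 to 0.0887 for Jak1 and 0.0656 to 0.107 for Ptpn11), so that the lower count then fell from 3 to 1, and the higher count was 0 to 1. With all probe sets in the fit, the calls of Cish, Jak1 and Ptpn11 were lost as well (adjusted p 0.0668, 0.0681 and 0.0726). Jak2 (0.11, adjusted p 0.580) and Tyk2 (0.25, adjusted p 0.179), named after their values were seen, did not pass.

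Genes known as STAT3 targets moved both ways. Of 28 measured, 5 were higher, 7 were lower and 16 did not pass (42.9% past, against 12.0% of all genes and 19.1% of the 11652 genes with a mean log2 of at least 7), with a median change of -0.17 against -0.0042 over all genes. The pathway lists were chosen with earlier results of these data known, so an excess in such a share was not tested. Some genes, such as Zfp36 and Arid5a, are also counted among the regulators of Il6. Higher were the protease inhibitor gene Serpina3n (0.91, SE 0.088, adjusted p 0.00061), Zfp36, whose product speeds the decay of cytokine mRNAs (0.58, SE 0.073), cyclin D1 (Ccnd1, 0.54, SE 0.070) and Arid5a, whose product stabilizes Il6 mRNA (0.47, SE 0.075). Lower were the acute phase gene Saa3 (-1.03, SE 0.16, adjusted p 0.0047) and Myc (-0.53, SE 0.076). Serpina3n and Saa3, both acute phase genes, thus changed in opposite directions: Serpina3n lay at 12.72 to 12.99 with Tie2-Cre and 11.96 to 12.00 without Cre, and Saa3 at 11.87 to 12.49 and 13.21 to 13.36. Most of these genes have other regulators besides STAT3. When 1 mouse was left out, 4 to 7 members were higher and 5 to 7 lower.

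Of 16 measured regulators of Il6 transcription and mRNA, 3 were higher (Zfp36, Arid5a and the transcription factor gene Creb1, 0.29, SE 0.066, adjusted p 0.0275), 1 was lower and 12 did not pass, with a median change of 0.06. The share past was 25.0%, against 12.0% of all genes and 19.1% of those with a mean log2 of at least 7. The lower one was Tnfaip3 (A20), a brake on NF-kB, at -0.73 (SE 0.14, adjusted p 0.0134). Its call was lost without mouse 7 (adjusted p 0.0519), and that of Creb1 without mouse 1, 3, 6, 7 or 10 (0.0747 to 0.0933) and with all probe sets in the fit (0.0702). Zfp36 and Arid5a, which act on Il6 mRNA in opposite ways, were both higher, while Il6 itself did not pass. When 1 mouse was left out, 2 to 7 members were higher and 0 to 1 lower. The 7 came without mouse 4, in a fit where 4.07% of all genes were higher (9.72% past in either direction). The 4 added were Nfkbia, Cebpd, Zfp36l1 and Zc3h12a (Regnase-1, which cuts Il6 mRNA), named after their values were seen, at 0.39, 0.35, 0.60 and 0.54.

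**Figure D4:**
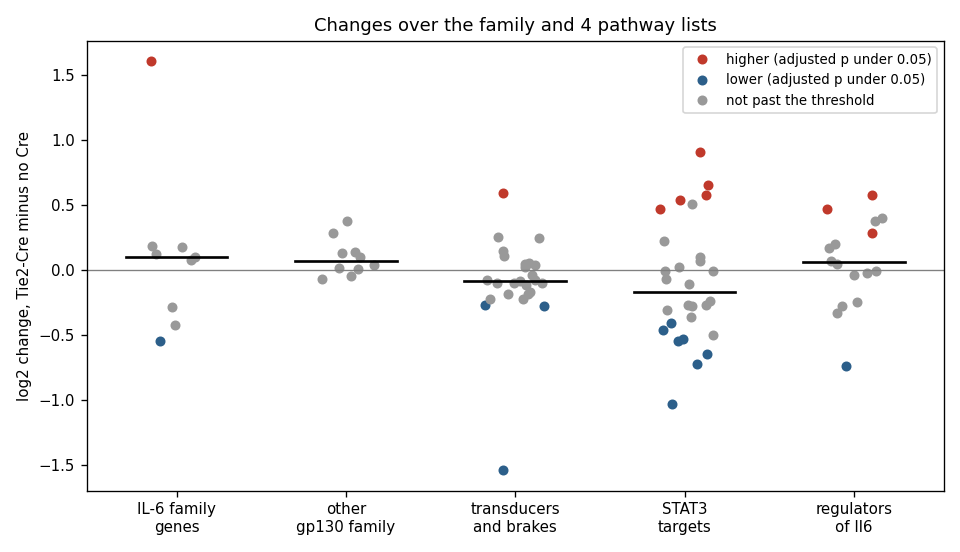
log2 change, Tie2-Cre minus no Cre (vertical axis), of the 9 measured IL-6 family genes and of the genes of 4 pathway lists, with 1 point per gene, red for higher and blue for lower past an adjusted p of 0.05, grey for the others, and a black line at the median. Points are spread sideways for legibility. STAT3 targets have 5 red and 7 blue points, and the other gp130 family genes have none.

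Markers of other cell types were read in the same mice, where 4.78% of all genes were higher and 7.17% lower. Of 10 pericyte and smooth muscle markers, 6 were higher and 0 lower (7 higher and 0 lower at an unadjusted p under 0.05, limma), with a median change of 0.41 and a summed intensity of 29576 to 33522 with Tie2-Cre and 21035 to 22560 without Cre. Of 9 fibroblast markers, 4 were higher and 1 lower, with a median of 0.07 and sums of 17936 to 19979 and 19200 to 19502, so that this list had no common direction: Pdgfra, for example, was higher (1.65, SE 0.13) and Dcn lower (-0.76, SE 0.10). Mesothelial and epithelial markers were lower in 3 of 8 (median -0.18, sums of 1318 to 1506 and 3338 to 3714). These were Upk1b (-3.29), Upk3b (-1.36) and Krt19 (-0.42), and the other 5 did not pass. A sum follows its brightest genes, so it need not describe the whole list. Macrophage and microglia markers were lower in 3 of 12 (median -0.06, sums of 1341 to 1413 and 1560 to 1642). These were Cd68 (-0.99), Csf1r (-0.42) and Fcgr3 (-0.33). Neutrophil and monocyte markers were lower in 2 of 6 (median -0.17, sums of 591 to 641 and 736 to 873), namely Ly6c2 (-0.62) and S100a8 (-0.55). Of 8 astrocyte and glioma markers, 2 were higher (median 0.09, sums of 1042 to 1050 and 792 to 868), and 0 of 7 T and NK markers passed in limma (1 at an unadjusted p under 0.05). Of 13 endothelial markers, 1 was higher (Flt1, 1.11, SE 0.25, adjusted p 0.0272) and 1 lower (Eng, -0.30, SE 0.064, adjusted p 0.0217), with a median of 0.010. The call of Flt1 was lost without mouse 6, 7 or 10 (adjusted p 0.0655 to 0.0909), that of Eng without mouse 1, 4, 6, 7 or 10 (0.0571 to 0.0827), and both with all probe sets in the fit (0.0797 and 0.0579). The sum over the 12 endothelial markers other than Eng was 1177 to 1544 with Tie2-Cre and 1075 to 1086 without Cre. With Eng it was 4642 to 4929 and 5253 to 5459, so Eng sets its direction. The sum without Eng includes Flt1, the brightest of the 12 (8.24 to 9.35 log2 with Tie2-Cre, 7.47 to 7.69 without Cre). The 11 markers besides Flt1 and Eng did not pass, so that sum gives no common rise of endothelial markers. Arrays have no true 0, so no marker can be said to be absent. The part of these markers in the changes of Lifr, Lif and the pathway lists was not tested.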

How the data were processed

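The authors deposited intensities on a linear scale, per the labels the output of RMA in Expression Console (Affymetrix); its version and a genome build are not given in the sources used here. RMA corrects background, quantile-normalizes and summarizes probes, so dim genes have compressed changes. The log2 of 41345 probe sets was taken. Of these, 23521 had 1 gene symbol, which left 22180 genes. Depth does not apply to arrays, and the number of arrays (3 per group) limits the precision. Nothing says that animals were pooled, and mouse numbers are taken from the labels.

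The groups were compared with limma 3.58.1 under R 4.3.3 (eBayes after lmFit, two-sided, Benjamini-Hochberg over all genes), with version 1.17.8 of data.table. The exact permutation test compared means over arrays. The scripts were tested on simulated data. The genes, the 4 pathway lists and the markers were chosen with earlier results of these data known. Always named were the IL-6 family genes, Pfn1, Xist and the gp130 family list; from the other lists, the called genes with the smallest p (up to 6 a list) were named. Marker genes named singly were chosen after their values were seen. Promoter windows came from RefSeq, GRCm38.p6.

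Alternatives were all probe sets in the fit, a minimum mean log2 of 5, median centring, a further quantile normalization, the mean of the probe sets, array weights, eBayes with trend and robust, the further probe set of Socs3 and leaving out each mouse. Counts in the pathway lists under these fits were added after the data were seen.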

Additional observations from a re-analysis of the deposited data

How the results depend on the processing

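The rise of Lifr kept its direction and its call under all 13 alternatives (1.50 to 1.74). The call of Lif was lost under 9 of 13, with changes of -0.54 with all probe sets, -0.53 with centred arrays, -0.52 after another quantile normalization, -0.51 with array weights and -0.64 to -0.39 without 1 mouse. The cause was not tested. Lower genes of the family then numbered 0, against 0 to 1 without 1 mouse and 2 with eBayes with trend and robust, which added Il6ra (-0.42). Higher ones numbered 1 to 2 without 1 mouse, where Osmr (0.10 to 0.30) was added without mouse 4. Over all genes, 634 to 903 were higher and 910 to 1253 lower without 1 mouse, where fewer samples enter, against 1061 and 1591. Socs3 changed sign with its further probe set (-0.075) and ranged from -0.0077 to 0.19 without 1 mouse. None of the genes that changed sign had passed the test: Il12a (-0.0019 after another quantile normalization, -0.029 to 0.050 without 1 mouse), Ebi3 (-0.0023 with the mean of the probe sets, -0.050 to 0.13), Ctf1 (-0.064 to 0.070), Cntfr (-0.087 to 0.0023) and Osm (-0.14 to 0.0066). No paired analysis was possible because the groups share no mouse numbers. The arrays come without detection calls, so which of the dim genes lie above background is unknown.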
